A study of Mus musculus with 6 samples.

Results

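The gene set described here holds the matrix metalloproteinases Mmp3, Mmp8, Mmp9, Mmp12, Mmp13 and Mmp14, the urokinase-type plasminogen activator Plau and its receptor Plaur. Its 8 genes were chosen by name, through their Entrez identifiers and with earlier results of these data known, out of 36528 identifiers in the files. All 8 were among the 15585 genes that passed the filter on low counts. Polyadenylated RNA of mouse brain microglia kept in vitro was sequenced in 6 libraries, 2 from each of 3 groups. The groups were untreated wild-type cells (WT_untreated), untreated cells labelled Loxp_untreated and described as Cop1 knockout microglia, and wild-type cells given the bacterial endotoxin lipopolysaccharide (WT_LPS). The labels give neither the LPS dose and duration nor the strain and age of the animals, the Cre driver, or the deleted part of Cop1. Nor do they state that a group's libraries are from different cultures or mice. The p-values thus reflect how far these libraries vary, which may be technical.

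Matrix metalloproteinases are zinc-dependent endopeptidases that are made as inactive proenzymes and cleave collagens, elastin, proteoglycans and many non-matrix proteins. Urokinase turns plasminogen into plasmin, which degrades fibrin and can activate several of the proenzymes, and the urokinase receptor holds the activator at the cell surface. In macrophages and microglia several of these genes are known targets of inflammatory signalling, and AP-1, a dimer of Jun and Fos family proteins, is a classical activator of their promoters. Cop1 is the substrate receptor of an E3 ubiquitin ligase whose known substrates include c-Jun, ETS-family factors and C/EBP proteins. Levels are given below as CPM, the gene's counts scaled to a common library size with TMM factors, when 1 gene is compared across libraries. They are given as the authors' length-scaled nRPKM, which is RPKM adjusted by a size factor per sample, when genes are compared with each other. A gene is called changed where the edgeR quasi-likelihood test, with Benjamini-Hochberg adjustment over the 15585 genes, gave an adjusted p below 0.05.

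The libraries held between 20568144 and 22553708 counts. Cop1 was read at 12.7 and 11.5 CPM in the untreated wild-type libraries, 8.05 and 9.22 CPM in the Cop1 KO libraries and 23.4 and 27.1 CPM in the LPS libraries. It was therefore reduced to 0.714 of the wild-type level in the knockout and not absent (log2 fold change -0.49, SE 0.11, adjusted p = 0.00016), and was not called under the 3 limma settings on nRPKM. All 10 microglia markers listed were detected, with summed levels of 6316 to 6343 CPM in wild type, 9642 to 9677 CPM in the knockout and 3537 to 3544 CPM with LPS. Markers of other brain cells moved with the groups. Astrocyte markers summed to 777 to 779 CPM in wild type, 50.6 to 54.8 CPM in the knockout, where 9 of 10 tested were lower, and 870.5 to 877 CPM with LPS. Neuron markers summed to 76.6 to 76.9, 4.05 to 4.81 and 83.2 to 84.5 CPM in the same order, with 9 of 9 tested lower in the knockout. Oligodendrocyte lineage markers summed to 233 to 238, 132 to 133 and 154 to 163 CPM. In the knockout 6 of 8 tested were lower and 1 higher (median log2 fold change -2.27). The higher one, Mbp, rose from 62.7 to 90.8 CPM on average and made up most of the knockout sum. Fibroblast markers summed to 1047 to 1062, 835 to 836 and 935 to 942 CPM, a sum made up mostly of Fn1, while 5 of 8 tested were higher and 2 lower in the knockout (median log2 fold change 1.12). Endothelial markers summed to 154 to 155, 165 to 168 and 199 to 202 CPM, with 3 of 5 higher and 1 lower in the knockout. Monocyte and border macrophage markers summed to 665 to 677, 759.8 to 777 and 732 to 739 CPM, of which Ms4a7 rose from 381 and 385 CPM to 615 and 629 CPM in the knockout. Of the 6 tested, 1 was higher and 4 were lower in both the knockout (median -0.59) and LPS (median -0.60). The part of these cells in the changes of the 8 genes and of the other genes named below was not tested. That limit holds for each of these genes, also where the markers are not mentioned again. In bulk RNA fewer cells of a type and less RNA per cell cannot be told apart.

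LPS raised 5 of the 8 genes and lowered 2. Mmp13 rose 179.6-fold, Mmp14 26.6-fold, Mmp3 12.7-fold, Plaur 6.97-fold and Mmp9 3.65-fold, while Plau fell to 0.182 and Mmp8 to 0.453 of the untreated level. Mmp12 was not called. Of all genes tested, 30.2% were called higher and 43.4% lower (73.7% in either direction), and the median log2 fold change of the 8 genes was 2.33 beside -0.18 over all genes. Because the 8 genes were chosen with earlier results of these data known, these values only describe them. Higher calls made up 41.1% of calls with TMM, 49.6% after median-of-ratios scaling and 19.9% with library size only, and the median over all genes was -0.18, -0.04 and -0.74 on the log2 scale. Relative to that median the changes of the 8 genes differed by at most 0.01 between the 3 scalings. A scaling shifts all genes by about the same amount, and subtracting the median removes that shift. This agreement was therefore fixed in advance and is no check of the scaling.

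In the Cop1 knockout, compared with the same wild-type libraries as LPS, 4 of the 8 genes were higher and 3 were lower than in untreated wild type, and all but 1 of these changes were smaller than 2-fold. The exception was Mmp3, which rose 9.44-fold. Mmp8, Mmp9 and Mmp14 rose by 1.38, 1.18 and 1.14-fold, and Plau, Mmp12 and Plaur fell to 0.503, 0.569 and 0.816 of the wild-type level. Over all genes tested 28.1% were called higher and 30.3% lower (58.4% in either direction), and the median log2 fold change of the 8 genes was 0.14 beside -0.01 over all genes. Of all calls 48.1% were higher with TMM, 58.4% after median-of-ratios scaling, 24.4% with library size only and 63.6% with limma on log2(nRPKM + 1). With library size only, 2 of the 8 genes were called higher, beside 2321 of all 15585 genes tested.

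**Figure D1:**
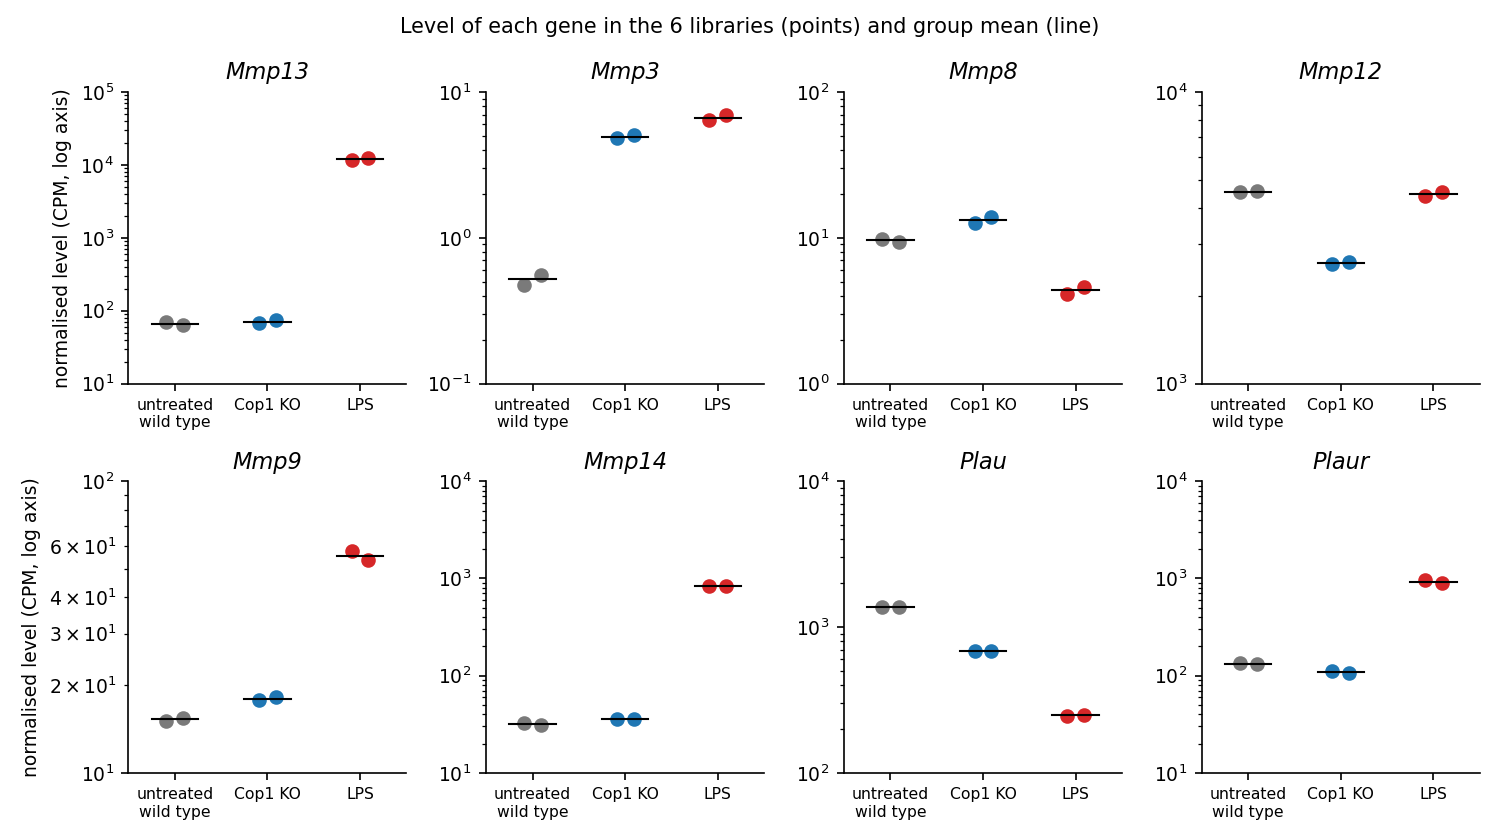
Normalised level (CPM, log axis with its own range in each panel) of the 8 genes in the 6 libraries; points are libraries and lines are group means. The LPS libraries stand far above the others for Mmp13 (11636 and 12239 CPM) and Mmp14 (838 CPM in each), and the knockout libraries join the LPS libraries above wild type for Mmp3.

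The sequence before the start sites is shown because AP-1 is a classical activator of several of these genes. Neighbouring genes of the set also changed in different ways. Windows were found for 6 of the 8 genes in the RefSeq promoter table of GRCm38.p6, and 250 bases before each start were searched on both strands for TGANTCA, a motif of 7 letters that does not match the CRE motif TGACGTCA. It was present for Mmp13, Mmp3, Plaur and the second of the Mmp12 starts, and not for Mmp8 or Mmp14. Of 32817 promoter windows of the same length, 6.75% held it. The 120 bases before each start are printed 5′ to 3′ with the motif in capitals.
Mmp13, chr9:7272394-7272513, plus strand: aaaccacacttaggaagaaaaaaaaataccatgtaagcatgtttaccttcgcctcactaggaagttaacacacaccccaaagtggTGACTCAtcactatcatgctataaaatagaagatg
Mmp3, chr9:7445702-7445821, plus strand: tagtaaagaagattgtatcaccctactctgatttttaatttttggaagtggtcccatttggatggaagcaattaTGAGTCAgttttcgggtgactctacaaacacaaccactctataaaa
Mmp12, second start, chr9:7347254-7347373, plus strand: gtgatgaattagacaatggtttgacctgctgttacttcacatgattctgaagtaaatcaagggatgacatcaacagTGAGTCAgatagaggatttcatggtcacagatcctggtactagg
Plaur, chr7:24462363-24462482, plus strand: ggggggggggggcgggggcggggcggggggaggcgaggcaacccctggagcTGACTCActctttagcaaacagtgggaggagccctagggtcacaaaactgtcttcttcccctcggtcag
Mmp8, chr9:7558309-7558428, plus strand: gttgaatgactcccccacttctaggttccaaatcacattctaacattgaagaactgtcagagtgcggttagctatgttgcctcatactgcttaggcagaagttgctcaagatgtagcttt
Mmp14, chr14:54431478-54431597, plus strand: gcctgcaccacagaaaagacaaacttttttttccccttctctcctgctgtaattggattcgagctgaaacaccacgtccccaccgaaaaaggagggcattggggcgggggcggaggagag
The first base of the motif lay 35 bases before the start in Mmp13, 46 in Mmp3, 44 in Mmp12 and 69 in Plaur, in each case with no other copy in the window. Among the windows of these genes, a C/EBP motif (TTGCNNNAA or TTNNGCAAT, in 9.54% of all windows) was found only before the other Mmp12 start. The letters CAGGAAG, the only form of an ETS site searched and in 10.8% of all windows, were found only before Mmp3, 184 bases from the start. Other forms were not counted, such as the aggaagtt in the Mmp13 sequence printed above. None of the 6 genes' windows held the CRE motif, in 1.55% of all windows, or the NF-kB motif, in 3.9%. The second start of Mmp12 and the start used for Plaur lie inside the annotated span of the gene, downstream of its first base. A match describes these letters and no binding was measured.

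Mmp13 encodes collagenase-3, which cuts fibrillar collagens, and lies at chr9:7272514-7283333 of GRCm38.p6. It was counted at 70.1 and 62.9 CPM in untreated wild type, 67.7 and 73.7 CPM in the knockout and 11636 and 12239 CPM with LPS. The LPS libraries were far above both other groups, and the wild-type and knockout libraries overlapped. The LPS change was 7.49 on the log2 scale (SE 0.04, adjusted p = 2.9e-70) and was the largest of the 8 genes. In each LPS library the gene took 0.938% and 0.986% of all counts. By nRPKM it ranked 10th of all genes in both LPS libraries, after ranks of 2103 and 2346 in wild type. In the knockout the log2 fold change was 0.09 (SE 0.04, 95% interval 0.01 to 0.17, adjusted p = 0.057), so its call depended on the setting. It was called higher in 8 of 14 alternatives, among them median-of-ratios factors (0.18, adjusted p = 0.00027) and limma on log2(nRPKM + 1) (0.21, adjusted p = 0.026), and it reversed to -0.10 (adjusted p = 0.029) with library size only. Relative to the median of all genes it was 0.10 with TMM, median-of-ratios factors and library size only. Subtracting the median removes the scaling, so that agreement was fixed in advance.

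Mmp8 encodes the other collagenase of the set, best known as a product of neutrophils, and lies at chr9:7558429-7568486. Its level was 9.84 and 9.39 CPM in wild type, 12.6 and 14.0 CPM in the knockout and 4.13 and 4.59 CPM with LPS. The 3 groups did not overlap, with the knockout highest and LPS lowest. It rose in the knockout (log2 fold change 0.47, SE 0.11, adjusted p = 0.00019) and fell with LPS (-1.14, SE 0.15, adjusted p = 4.2e-10), and the direct difference between knockout and LPS was 1.61 (SE 0.15, adjusted p = 1.9e-15). Of 10 neutrophil markers, Ly6g, Mpo, Elane, S100a9, Ngp and Retnlg had 0 counts in every library, and the summed level of the list was 0.373 to 1.28 CPM over the 6 libraries. S100a8, the only neutrophil marker with enough reads to test, had 6 and 6 counts in wild type, 19 and 12 in the knockout and 7 and 4 with LPS, and was higher in the knockout (1.56, SE 0.56, adjusted p = 0.0095). Its part in the change of Mmp8 was not tested.

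Mmp3 encodes stromelysin-1, which degrades proteoglycans and activates other proenzymes, and lies at chr9:7445822-7455975. It had 12 and 15 counts in wild type, 107 and 115 in the knockout and 115 and 115 with LPS. These counts are 0.476 and 0.559 CPM, 4.81 and 5.07 CPM, and 6.42 and 6.94 CPM. Both other groups were clear of wild type and did not overlap with each other. The change was 3.24 in the knockout (SE 0.31, adjusted p = 2e-16) and 3.67 with LPS (SE 0.31, adjusted p = 2.5e-19) on the log2 scale, with the widest errors of the 8 genes. The difference between knockout and LPS was the smallest of the 8: the knockout level was 0.741 of the LPS level (log2 -0.43, SE 0.17, adjusted p = 0.015). That difference was not called with library size only (-0.06), with DESeq2 (adjusted p = 0.13), without the first knockout library (adjusted p = 0.082) or without the second LPS library (adjusted p = 0.094).

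Mmp12 encodes macrophage elastase and lies at chr9:7344397-7360461. The gene was read at 4534 and 4558 CPM in wild type, 2567 and 2609 CPM in the knockout and 4395 and 4556 CPM with LPS. Knockout libraries lay below all others, and wild-type and LPS libraries overlapped. The knockout change was -0.81 (SE 0.02, adjusted p = 1.1e-33), and against LPS it was -0.79 (SE 0.02, adjusted p = 6.8e-34). With LPS the change was -0.02 (SE 0.02, adjusted p = 0.41), but its sign moved with the scaling: median-of-ratios factors gave 0.12 (adjusted p = 3.8e-05) and library size alone gave -0.59 (adjusted p = 2.8e-28). Relative to the median of all genes, which removes the scaling by construction, it was 0.16 under all 3. Of the exonic bases of Mmp12, 2.17% overlap Mmp1b on the opposite strand, which had at most 3 counts per group.

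Mmp9 encodes gelatinase B, which cleaves denatured collagen and basement membrane collagen, and lies at chr2:164940326-164955850. Its level was 15.0 and 15.5 CPM in wild type, 17.7 and 18.1 CPM in the knockout and 57.7 and 53.5 CPM with LPS. The LPS libraries were the highest, and the knockout libraries were just above wild type without overlap. LPS raised it by 1.87 on the log2 scale (SE 0.08, adjusted p = 2.6e-29). The rise in the knockout was 0.23 (SE 0.08, adjusted p = 0.015), and it was not called with library size only (0.04, adjusted p = 0.7), without the first wild-type library (adjusted p = 0.092) or without the second knockout library (adjusted p = 0.071).

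Mmp14 encodes MT1-MMP, a membrane-anchored protease that activates pro-MMP2 and pro-MMP13, and lies at chr14:54431598-54442456. It was read at 32.2 and 30.9 CPM in wild type, 35.8 CPM in each knockout library and 838 CPM in each LPS library. The LPS libraries were again far above the rest, by 4.73 on the log2 scale (SE 0.04, adjusted p = 2.6e-60). The knockout change was 0.18 (SE 0.05, adjusted p = 0.0024), which became -0.01 (adjusted p = 0.92) with library size only and had an adjusted p = 0.053 without the second wild-type library. Knockout and LPS differed by -4.55 (SE 0.04, adjusted p = 2.4e-59).

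**Figure D2:**
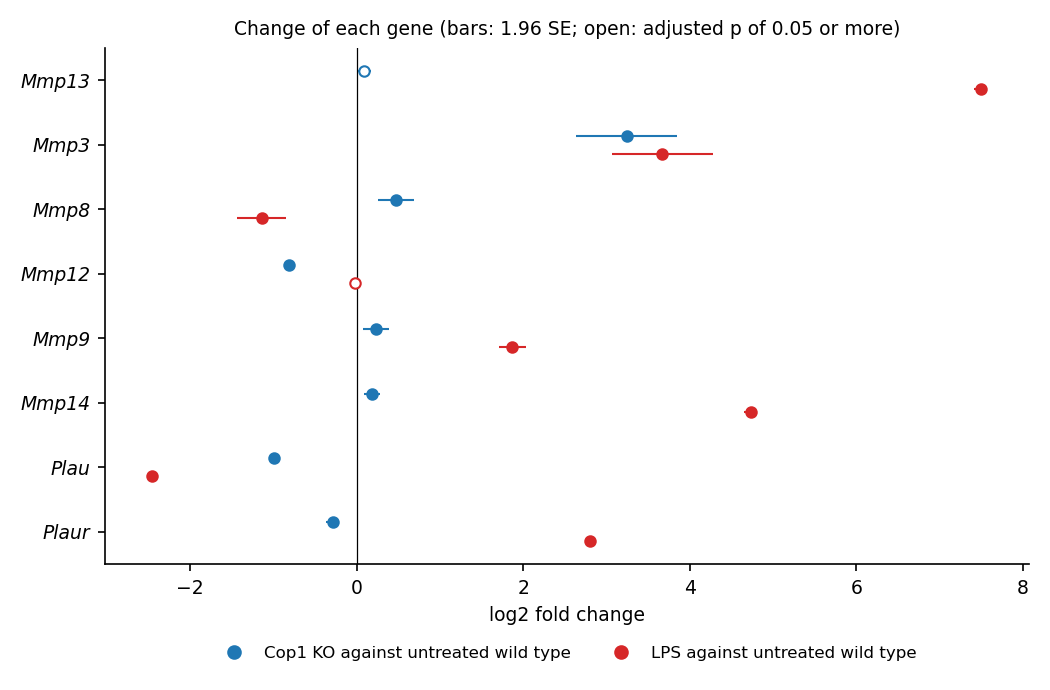
Log2 fold change of each gene against untreated wild type in the Cop1 knockout (blue) and with LPS (red); bars span 1.96 SE and open points have an adjusted p of 0.05 or more. Mmp3 moves to about the same place in both (3.24 and 3.67), Mmp8 and Plaur move in opposite directions, and Plau falls in both (-0.99 and -2.46).

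Plau encodes urokinase and lies at chr14:20836662-20843388. It was read at 1365 and 1362 CPM in wild type, 687 and 685 CPM in the knockout and 247 and 249 CPM with LPS. The groups formed 3 levels with almost no spread inside each. Plau fell by 0.99 on the log2 scale in the knockout (SE 0.03, adjusted p = 6.7e-35) and by 2.46 with LPS (SE 0.03, adjusted p = 1.1e-52). The knockout stayed 2.77-fold above LPS (log2 1.47, SE 0.03, adjusted p = 4.4e-42).

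Plaur encodes the urokinase receptor, a protein held in the membrane by a lipid anchor, and lies at chr7:24460937-24475970. It was read at 136 and 130.5 CPM in wild type, 111 and 107 CPM in the knockout and 955 and 901 CPM with LPS. Knockout libraries were the lowest and LPS libraries the highest. The receptor fell by 0.29 in the knockout (SE 0.04, adjusted p = 3.8e-09) and rose by 2.80 with LPS (SE 0.03, adjusted p = 1.6e-52), so that receptor and activator moved in opposite directions with LPS and in the same direction in the knockout. Per length, the ratio of Plau to Plaur was 7.60 and 7.88 in wild type, 4.69 and 4.85 in the knockout and 0.195 and 0.209 with LPS. The activator transcript exceeded that of the receptor in both untreated groups, and the receptor exceeded the activator in both LPS libraries.

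Knockout and LPS were also compared with each other directly. All 8 genes were called: 2 were higher in the knockout and 6 lower, beside 39.9% and 39.6% of all genes (79.6% in either direction). The median log2 difference was -1.21 for the 8 genes and 0.03 over all genes. Mmp8 and Plau were the higher ones. Mmp13 was 0.00593 and Plaur 0.117 of the LPS level in the knockout, with log2 differences of -7.40 (SE 0.04, adjusted p = 8.7e-70) for Mmp13 and -3.09 (SE 0.04, adjusted p = 1e-53) for Plaur. Mmp9 differed by -1.63 (SE 0.08, adjusted p = 9.3e-27). Of all calls in this comparison 50.2% were higher in the knockout with TMM and 64.5% with library size only.

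The order of the 8 transcripts per gene length changed with LPS. In wild type the mean nRPKM was 836 ± 3.19 for Mmp12, 394 ± 0.584 for Plau, 50.9 ± 1.39 for Plaur, 16.8 ± 1.29 for Mmp13, 8.22 ± 0.249 for Mmp14, 3.04 ± 0.0610 for Mmp9, 2.65 ± 0.0870 for Mmp8 and 0.195 ± 0.0221 for Mmp3 (SD, n = 2 each). No neighbours in that order overlapped. The elastase and urokinase thus led the set in untreated cells, and Mmp12 ranked 17th of all genes in both wild-type libraries. In the knockout Mmp12 (521 ± 7.47) and Plau (217 ± 0.233) still led, followed by Plaur (45.5 ± 1.01), Mmp13 (19.6 ± 1.24) and Mmp14 (10.2 ± 0.0327). Mmp8 (4.02 ± 0.308) and Mmp9 (3.92 ± 0.0744) overlapped there, and Mmp3 (2.03 ± 0.0816) was again the lowest. With LPS it ran from Mmp13 (3384 ± 126) through Mmp12 (922 ± 24.8), Plaur (398 ± 15.7), Mmp14 (245 ± 0.288), Plau (80.3 ± 0.594), Mmp9 (12.4 ± 0.635) and Mmp3 (2.81 ± 0.157) to Mmp8 (1.35 ± 0.101), with no overlap between neighbours. The collagenase Mmp13 thus passed Mmp12: their ratio was 0.0213 and 0.0190 in wild type, 0.0363 and 0.0389 in the knockout and 3.65 and 3.70 with LPS.

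**Figure D3:**
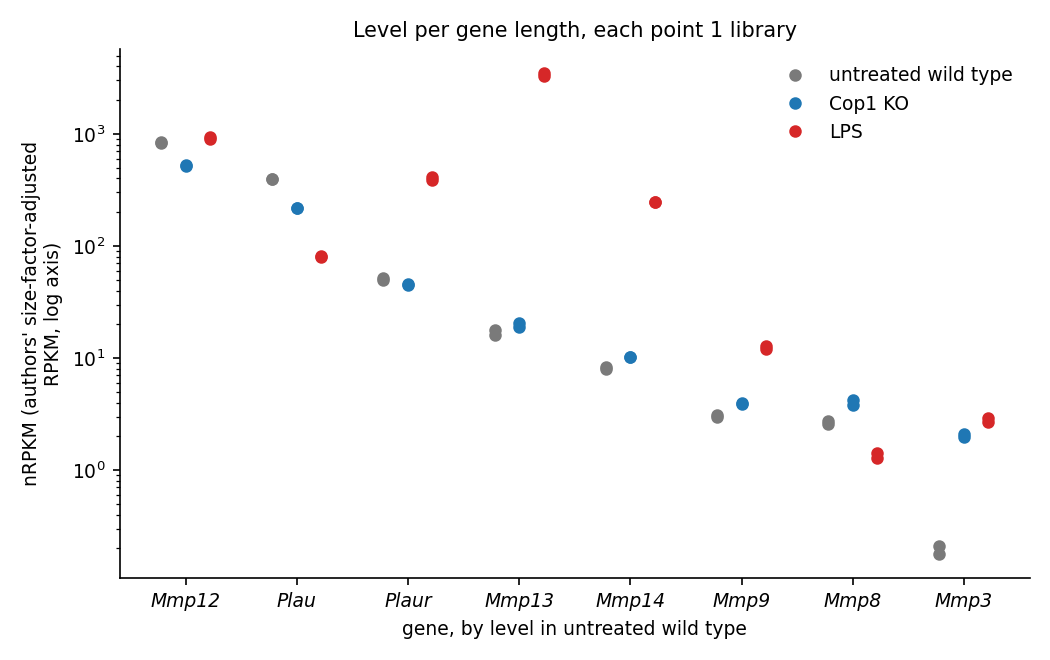
Authors' nRPKM (log axis) of the 8 genes, ordered by their level in untreated wild type; each point is 1 library. Mmp12 and Plau lead in the untreated groups, and Mmp13 (3295 and 3473) leads with LPS.

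Of the 8 genes, Mmp13, Mmp12, Mmp3 and Mmp8 lie in a cluster of 10 metalloproteinase genes on chromosome 9 that spans 427 kb (chr9:7272514-7699585) with no other protein-coding gene between them. The 4 did not move as a block. Mmp13 and Mmp12 are neighbours, 61.1 kb apart, and changed with LPS by 7.49 and -0.02 on the log2 scale. Relative to the median of all genes, which removes the scaling by construction, they changed by 7.67 and 0.16. Mmp10 and Mmp27, named here for their position and after their values were seen, are the other tested genes of the cluster. Mmp10, which encodes stromelysin-2, had 49 counts in the wild-type libraries together, 36 in the knockout and 103 with LPS, where it rose by 1.66 (SE 0.30, adjusted p = 1e-06). Mmp27 fell with LPS by 0.53 (SE 0.15, adjusted p = 0.0015), a call lost with DESeq2 (adjusted p = 0.15). In the knockout the adjusted p was 0.61 for Mmp10 and 0.26 for Mmp27, but limma on the filtered genes called Mmp27 higher (0.22, adjusted p = 0.039 and 0.29, adjusted p = 0.045). Mmp1a and Mmp1b had at most 3 counts in a group, and Mmp7 and Mmp20 had 0 in every library. The AP-1 motif was found in at least 1 window of 8 of the 10 cluster genes, all except Mmp8 and Mmp27. It thus lay before genes at 0 counts as well as before Mmp13. Mmp12 and Mmp7 have 2 windows each, of which 1 held it, whereas the share of 6.75% is per window.

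**Figure D4:**
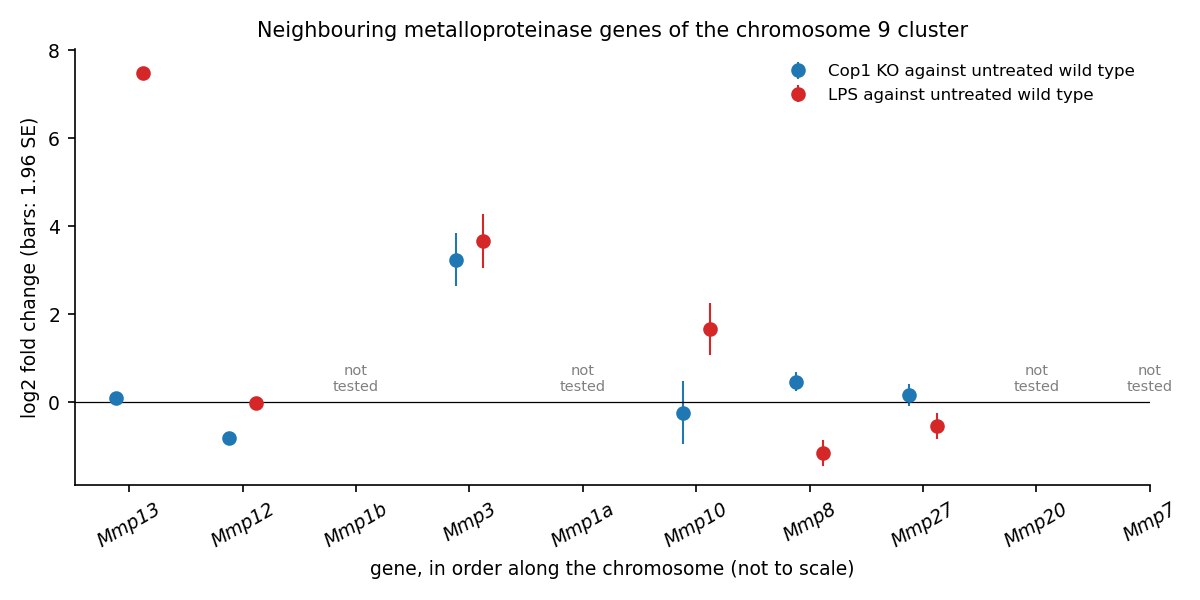
Log2 fold change against untreated wild type (bars: 1.96 SE) of the chromosome 9 metalloproteinase genes in chromosomal order, spaced evenly and not to scale. The change with LPS runs from 7.49 at Mmp13 to -1.14 at Mmp8, and 4 of the 10 genes had too few reads to test.

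Among 17 other matrix metalloproteinases 12 were tested. In the knockout 1 was higher, 3 were lower and 8 were not called (median log2 fold change -0.02), and with LPS 4 were higher, 4 lower and 4 not called (median 0.03). Mmp25, which encodes a lipid-anchored protease of leukocytes, had 2 and 3 counts in wild type, 3 and 3 in the knockout and 1130 and 982 with LPS. It was all but unread outside the LPS libraries, and its LPS change of 9.23 (SE 0.64, adjusted p = 1.7e-43) rests on those few reads. Mmp15, another membrane-type protease, was 19.6 and 18.0 CPM in wild type, 0.855 and 0.485 CPM in the knockout and 20.3 and 18.5 CPM with LPS. It fell in the knockout (-4.80, SE 0.28, adjusted p = 5e-30), as did the membrane-type Mmp16 (-3.66, SE 0.56, adjusted p = 4.5e-11), in the libraries in which astrocyte and neuron markers were lowest. With LPS the change of Mmp15 was 0.04 (adjusted p = 0.68), and -0.52 (adjusted p = 1.9e-06) with library size only. Mmp2, the gelatinase that MT1-MMP activates, rose in the knockout (1.36, SE 0.17, adjusted p = 5.8e-10). Its LPS change of 0.45 (adjusted p = 0.038) lost the call in 6 of 14 alternatives and turned to -0.11 with library size only and to -0.01 without the first LPS library. Mmp19 fell with LPS (-1.28, SE 0.07) and Mmp28 rose (2.52, SE 0.36), but 28.3% and 12% of their exonic bases overlap genes on the opposite strand.

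Of the 5 metalloproteinase inhibitors, 2 were higher and 3 lower in the knockout (median -0.66), and 1 was higher and 3 lower with LPS (median -0.39). Timp1, the inducible secreted inhibitor, was 7.10 and 6.45 CPM in wild type, 32.9 and 31.7 CPM in the knockout and 34.1 and 36.3 CPM with LPS. Both other groups were clear of wild type, and Timp1 rose by 2.25 in the knockout (SE 0.10, adjusted p = 2.7e-28) and by 2.38 with LPS (SE 0.10, adjusted p = 1.2e-29). The difference between knockout and LPS was -0.12 (adjusted p = 0.11), but median-of-ratios factors (-0.18, adjusted p = 0.023) and limma on the filtered genes (-0.15, adjusted p = 0.035 and -0.16, adjusted p = 0.042) called it lower in the knockout, and library size only called it higher (0.25, adjusted p = 0.002). Timp2, which also takes part in pro-MMP2 activation by MT1-MMP, rose in the knockout (0.36, SE 0.03, adjusted p = 1e-15) and fell with LPS (-1.12, SE 0.03, adjusted p = 2.3e-36). Timp3 and Timp4 fell in the knockout by 1.37 and 3.59, and the membrane inhibitor Reck by 0.66 (adjusted p = 0.023) there and by 0.87 with LPS (adjusted p = 0.0044), calls lost in 7 and 2 of the 14 alternatives, DESeq2 (adjusted p = 0.31 and 0.16) and leaving out the second wild-type library (adjusted p = 0.28 and 0.091) among both. With LPS, Timp4 changed by -0.39 (adjusted p = 0.025), a call lost in 8 of 14 alternatives. Timp3 changed by -0.13 (adjusted p = 0.059) and gained a call in 4. Of the exonic bases of Timp3, 21.3% overlap Syn3.

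In the LPS libraries Mmp13 rose relative to Timp1, and Mmp14 relative to Timp2. This did not hold for all metalloproteinases of the set. Beside the log2 change of Timp1 with LPS (2.38), Mmp13 (7.49), Mmp14 (4.73) and Mmp3 (3.67) rose more. Mmp9 (1.87), Mmp12 (-0.02) and Mmp8 (-1.14) did not. The ratio of Mmp13 to Timp1 per length was 3.29 and 3.25 in wild type, 0.686 and 0.774 in the knockout and 113.6 and 112.1 with LPS. It was lowest in the knockout and highest with LPS. The ratio of Mmp14 to Timp2 was 0.0659 and 0.0618, 0.0567 and 0.0562, and 3.62 and 3.78 in the same order. These are ratios of transcripts, not of active protein.

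Of 12 other genes of the plasminogen system 9 were tested. In the knockout 4 were higher and 5 lower (median -0.19), and with LPS 5 were higher, 3 lower and 1 not called (median 0.44). Serpinb2, which encodes the inhibitor PAI-2, rose in both comparisons, by 2.06 (SE 0.28, adjusted p = 8.1e-10) and 6.11 (SE 0.26, adjusted p = 1.4e-39), from 18 and 16 counts in wild type, with 12.4% of its exonic bases shared with Serpinb10 on the same strand. The other activator gene, Plat, fell in the knockout (-2.46, SE 0.19, adjusted p = 4.7e-19) and rose with LPS (1.19, SE 0.10, adjusted p = 5.8e-15), opposite to Plau in the latter. S100a10, which encodes a plasminogen-binding surface protein, moved the same 2 ways as Plat (-0.77 and 1.02), and Lrp1, the scavenger receptor that clears protease-inhibitor complexes, moved the other way (0.67 and -1.83). Serpine2, a secreted protease inhibitor, fell by 1.15 and 0.29, the latter not called with DESeq2 (adjusted p = 0.081) or any limma setting. Plg itself had 1 count in the 6 libraries.

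**Figure D5:**
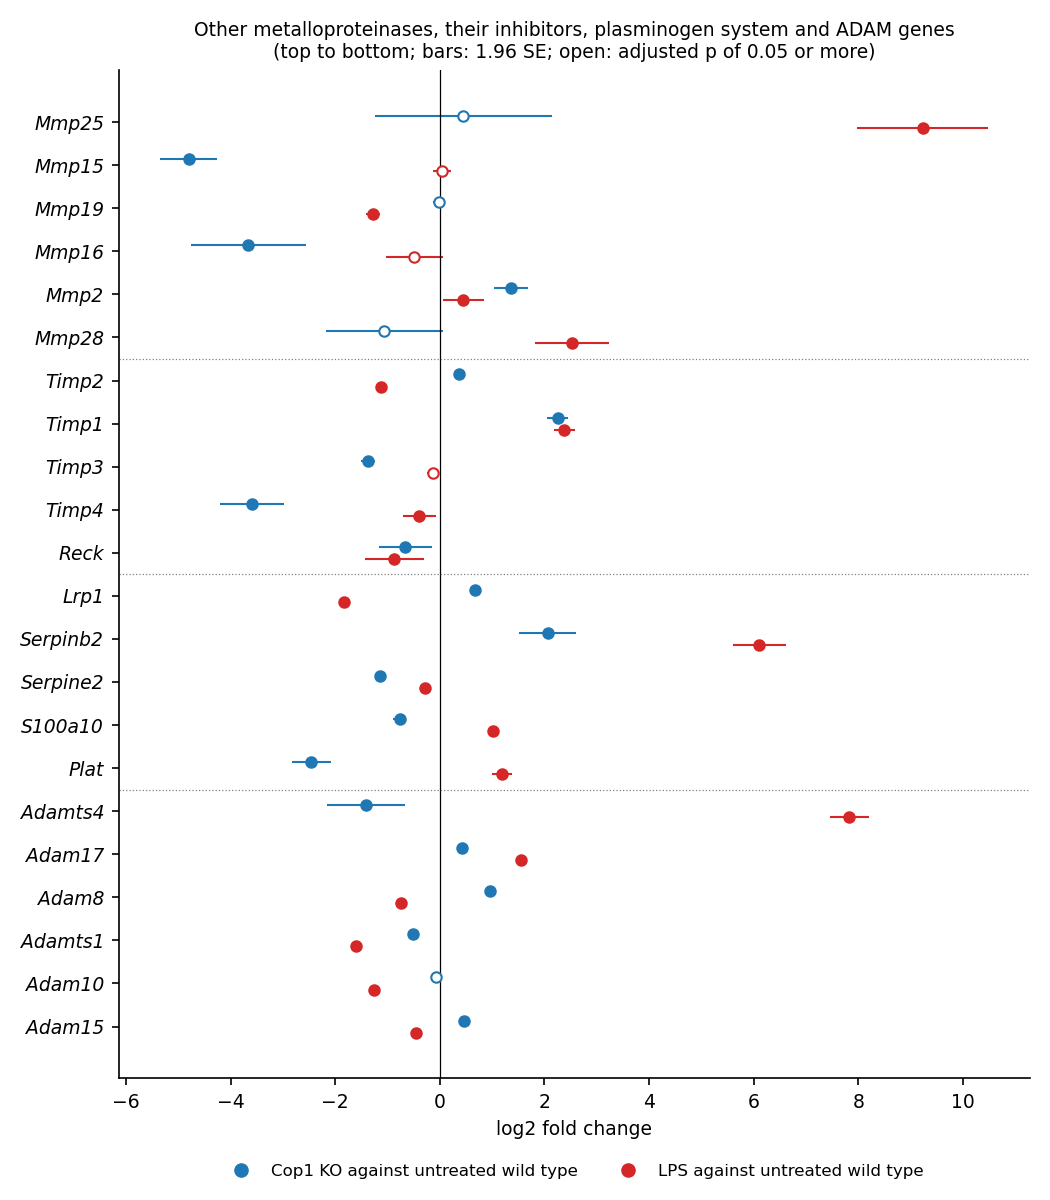
Log2 fold change against untreated wild type of the named pathway genes, in 4 blocks from other metalloproteinases at the top to ADAM genes at the bottom; bars span 1.96 SE and open points have an adjusted p of 0.05 or more. Timp1 and Serpinb2 lie to the right of 0 in both comparisons, and Mmp25 (9.23) and Adamts4 (7.83) reach far to the right with LPS.

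The related ADAM and ADAMTS proteases were mixed, with 10 of 11 tested: 3 higher and 5 lower in the knockout (median -0.21), 4 higher and 4 lower with LPS (median -0.01). Adamts4, an aggrecanase, had 23 and 33 counts in wild type, 12 and 6 in the knockout and 4511 and 3990 with LPS. It rose with LPS by 7.83 (SE 0.19, adjusted p = 1.3e-54) and fell in the knockout by 1.41 (SE 0.38, adjusted p = 6e-04), the latter not called with limma on log2(nRPKM + 1) (adjusted p = 0.094). Adam17, the shedding protease that releases TNF, rose in both (0.43 and 1.55). Adam8, a leukocyte membrane protease, was 2553 and 2527 CPM in wild type, 4932 and 4927 CPM in the knockout and 1533 and 1502 CPM with LPS, and so rose and fell in turn (0.96, SE 0.02, adjusted p = 8.3e-37 and -0.74, SE 0.02, adjusted p = 2.2e-32). Adam15 had the same directions (0.46 and -0.46), although 20.6% of its exonic bases overlap an antisense gene. Adamts1 fell in both (-0.51 and -1.61). Adam10, the alpha-secretase of the amyloid precursor protein, fell with LPS (-1.26) and had a knockout change of -0.08 (adjusted p = 0.057). That change was called in 4 of 14 alternatives: library size only (-0.27, adjusted p = 4.8e-09), only the 2 groups compared (adjusted p = 0.012) and without either LPS library (adjusted p = 0.027 and 0.025).

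Of 12 transcripts for AP-1 and ETS factors, 4 were higher and 5 lower in the knockout (median 0.08), and 4 were higher and 7 lower with LPS (median -0.63). Junb rose in both (0.44, SE 0.04 and 2.05, SE 0.04), with 159 and 158 CPM in wild type, 219 and 211 CPM in the knockout and 686 and 631 CPM with LPS. Fos fell in both (-0.13 and -1.89), but its knockout change was not called in 7 of 14 alternatives, median-of-ratios factors (-0.05, adjusted p = 0.35) among them. Jun fell with LPS (-1.06) and was 0.06 in the knockout (adjusted p = 0.18), where the setting decided the call: it was higher with median-of-ratios factors (0.15, adjusted p = 0.0015), DESeq2 (0.15) and each limma setting (0.19), and lower with library size only (-0.13, adjusted p = 0.0062). Ets2 rose with LPS (1.52, adjusted p = 2.9e-35), and its knockout change was 0.10 (adjusted p = 0.07). It was called higher in the knockout in 6 of 14 alternatives, with 0.19 (adjusted p = 0.00082) for median-of-ratios factors. The PEA3-family genes Etv4 and Etv5 fell in the knockout (-3.23 and -0.98), in the libraries in which astrocyte and neuron markers were lowest. They also fell with LPS (-0.44 and -1.49), where Etv4 was not called in 5 of 14 alternatives, median-of-ratios factors (adjusted p = 0.056) among them. RNA levels do not measure the amounts of these proteins, which Cop1 is known to control by degradation.

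Each gene's pattern over the 6 libraries was compared with 10378 others of at least 5 CPM on average, as a description. The measure was the Euclidean distance of their centred log2 CPM, with a small count added before the logarithm. Mmp3, at 4.05 CPM on average, was below that level and was not matched. The nearest genes were Pigb (distance 0.10) and Pcmtd2 (0.13) for Mmp8, Piezo1 (0.11) and Ppp6r1 (0.11) for Mmp9, and Hsdl2 (0.08) and Tom1l2 (0.10) for Mmp12. Xkr8 (0.17) was near to Mmp14, Mcm2 (0.21) and Bhlhe40 (0.25) to Plau, and Clic4 (0.16) and Cemip2 (0.19) to Plaur. For Mmp13 they were AA467197 (0.20), with 197 counts in wild type, 167 in the knockout and 21060 with LPS, and Gm32650 (0.26), with 0, 0 and 612 counts. At 0 counts the distance of Gm32650 depends on the added count. Its fitted log2 LPS change was 11.6, beside 7.49 for Mmp13.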

How the data were processed

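Per the labels' protocols, libraries of polyadenylated RNA came from a TruSeq kit, of a kind that does not mark strand, and were sequenced as single reads. The submitters' processing notes name GSNAP and GRCm38. The aligner's version is not given in the sources used here, nor is the annotation. The deposited counts are reads that aligned uniquely to a gene, per the file headers. The deposited RPKM values (nRPKM) are, per the file headers, RPKM times a size factor for each sample, of unstated method.

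Identifiers were named through RefSeq tables (31049 of 36528 matched); those without a name held 1.07 to 1.31% of the counts and stayed in the library sizes. Counts were tested in R 4.3.3 with edgeR 4.0.16 (filterByExpr by group, TMM factors, quasi-likelihood test) in 1 model of the 6 libraries, with Benjamini-Hochberg adjustment over 15585 genes. The procedure was tested on simulated counts in which few genes changed, equally up and down and only in the knockout group. It therefore could not check the scaling of data with as many changes as these. Libraries of a group varied beyond sampling noise, with chi-square values of 1.60 to 2.57 per degree of freedom. Alternatives were median-of-ratios factors, library size only, no filter, DESeq2 1.42.0, limma 3.58.1 with a trend on log2(nRPKM + 1) or log2(nRPKM + 0.1), only the 2 groups compared, and leaving out each library. Python 3.11.15 was used for the sequences and figures.

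The 8 genes, the 5 pathway lists and the 8 marker lists were chosen with earlier results of these data known. Named were the 8 genes, Cop1, up to 6 called genes with the smallest p per pathway list, listed genes at 0, and the 2 genes of most similar pattern per gene of at least 5 CPM; Mmp10, Mmp27, Mmp1a and Mmp1b were added for their position. Promoter windows for Mmp9 and Plau, and protein sequences, were not used here, and 2 genes that this rule names are not reported here.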

Additional observations from a re-analysis of the deposited data

How the results depend on the processing

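Across the 14 alternatives, 310 of the 336 recomputed changes of the 8 genes kept their call and, where called, their direction. Of the rest, 10 gained a call (8 of them Mmp13 in the knockout and 2 Mmp12 with LPS), 8 lost one and 8 changed sign. A change of sign was counted only where the main or the alternative fit called the gene. Mmp12 with LPS kept its sign in 8 of 15 settings, main fit included. The 8 sign changes were the LPS change of Mmp12, which was 0.12 with median-of-ratios factors and with only the 2 groups compared, 0.11 with DESeq2 and 0.14 in each limma setting, and, with library size only, the knockout changes of Mmp13 (-0.10) and Mmp14 (-0.01). Among other named genes, library size only turned Jun in the knockout (-0.13), Mmp15 (-0.52) and Mmp2 (-0.11) with LPS, and Timp1 between knockout and LPS (0.25), and leaving out 1 LPS library gave -0.01 to 0.78 for Mmp2. With library size only 2 of the 8 genes were higher in the knockout, beside 2321 of all 15585 genes tested. For the sign changes under library size only, the median of all genes moved to -0.20 in the knockout and -0.74 with LPS. Leaving out 1 library left 3 to 5 of the 8 genes higher and 3 lower in the knockout, 5 higher and 2 to 3 lower with LPS, and 2 higher and 5 to 6 lower in the knockout against LPS. The lone library of a group was then assumed to vary like the other groups. Genes called numbered 7705 to 9396, 10666 to 11721 and 11834 to 12445 in the same order. No paired analysis was possible because the labels give no replicate numbers, and those used here (1 and 2) only name the libraries in accession order. With 2 libraries per group and 3 residual degrees of freedom the spread is known only roughly, and Mmp3 rests on 12 and 15 counts in wild type.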
